A study of Mus musculus with 477 samples.

Results

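The 8 chemokine genes Cxcl1, Cxcl2, Cxcl5, Cxcl15, Cxcl16, Cx3cl1, Ccl2 and Ccl20 were followed across single mammary epithelial and tumor cells of the mouse. They were taken by name from the 21004 genes of the count table, and all 8 were present. Each cell had been lysed in its own chamber of a microfluidic Fluidigm C1 chip, and its full-length cDNA was read without molecular identifiers. Female mice on a mixed C57BL/6 and 129/Sv background carried MMTV-Cre, a recombinase gene driven by a mammary tumor virus promoter that is active in mammary epithelium. The genotype Br carried Brca1 fl/fl. By the paper's methods the genotype 53 carried Trp53 fl/+ and Br53 carried both. A supplementary legend on mammary cells of these genotypes gives Trp53 fl/fl instead. Luminal cells (L) came from glands of mice aged 3 to 4 months that were virgin (v) or at day 12.5 of pregnancy (p), and were gated as CD24 high, CD29 low and positive for membrane GFP, the product of a Cre reporter. Tumor cells (T) came from tumors of around 1 cm in Br or Br53 mice and were gated as CD24 positive. A kit that removes hematopoietic and endothelial cells was used before both sorts. No group had an intact Cre-free genotype.

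Counts came from 11 mice in 10 labelled groups. These were the luminal mice v53L, vBrL, vBr53L, p53L, pBrL-1, pBrL-2 and pBr53L (312 cells) and the tumors BrT1, BrT2, Br53T1 and Br53T2 (165 cells). The group pBrL held 2 mice and every other group held 1, so each comparison was made over mice that also differed in genotype or stage. Each mouse gave 40338926 to 115827852 counted reads and each cell 170209 to 3550564. The only technical batch in the labels was the chip, of which there were 8, and each tumor other than Br53T2 had a chip of its own, so tumor and chip could not be told apart for 3 of the 4 tumors. Reads were summed over the cells of a mouse and scaled to reads per 1000000 counted reads of that mouse (CPM). Shares of cells were counted after each cell was thinned at random to 100000 reads, and their exact 95% binomial intervals cover counting error only. Total Brca1 counts, which include exons outside the deleted part and so do not check the deletion, ranged from 1.70 to 57.2 CPM.

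Cell type markers set 2 tumors apart. The sum of 6 luminal markers (Epcam, Krt8, Krt18, Krt19, Cdh1 and Cd24a) was 846 CPM in BrT1, against 4669 to 6578 CPM in the other 3 tumors and 8660 to 13700 CPM in luminal mice. The sum of 7 fibroblast markers was 5038 CPM in BrT1, mostly Dcn at 4356 CPM, and at most 101 CPM in the other tumors and 712 CPM in luminal mice (vBrL). The sum of 6 basal markers was 5335 CPM in Br53T2 and at most 274 CPM in the other tumors. In no tumor did a cell hold 2 or more macrophage or lymphocyte markers at 10 CPM, while 1 cell of vBrL and 2 cells of pBr53L did. The macrophage marker Cd68 was left out of this count. Its level was 0 to 44.8 CPM in tumors, highest in Br53T2, and 7.81 to 64.7 CPM in luminal mice. The chemokine values are therefore given for each mouse, and with and without BrT1 or Br53T2 where a result rests on them.

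Chemokines are small secreted or membrane-anchored proteins that guide leukocytes along a concentration gradient through G protein-coupled receptors. Cxcl1, Cxcl2 and Cxcl5 attract neutrophils through Cxcr2, Ccl2 attracts monocytes through Ccr2, and Ccl20 attracts cells that carry Ccr6. Cxcl16 and Cx3cl1 are made as membrane-anchored ligands that Adam10 and Adam17 can shed, and Cxcl15 was described as a neutrophil attractant of lung epithelium. Transcription of several of them, Cxcl1 and Cxcl2 among them, is induced by NF-kB, the factor activated by TNF, interleukin 1 and Toll-like receptors.

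In the GENCODE annotation of GRCm38, Cxcl5, Cxcl15, Cxcl1 and Cxcl2 lay in that order on the plus strand of chromosome 5, with 142 kb between the end of Cxcl5 and the start of Cxcl2. Cxcl1 occupied chr5:90891241-90893115 and Cxcl2 chr5:90903871-90905938, 10.8 kb apart. Cxcl15 occupied chr5:90794534-90803067 and Cxcl5 chr5:90759360-90761624. Ccl2 lay at chr11:82035571-82037453 (+), Cxcl16 at chr11:70453983-70459984 (-), Cx3cl1 at chr8:94772009-94782427 (+) and Ccl20 at chr1:83116766-83119167 (+). Of the 50-base words in the Cxcl2 transcripts, 5.84% also occurred in Cxcl3, and the share was 0 for Cxcl1 and Ccl2. Exons of Zmynd15 on the opposite strand covered 18.3% of the exonic bases of Cxcl16, and since the strand setting of the counting was not given in the sources used here, Cxcl16 is less certain than the others. Zmynd15 itself had 0 to 3.00 CPM.

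The 150 bases upstream of the RefSeq start sites (GRCm38.p6, plus strand) are shown for Cxcl1 and Cxcl2, since most cells with Cxcl2 also had Cxcl1, and for their neighbour Cxcl15, of whose 45 luminal cells 15 also had Cxcl1. Capitals mark matches to a form of the NF-kB motif (GGGA, any 1 base, then TTTCC) or to TATAAA, each searched on both strands, and the motifs share no base in these stretches. The stretches are chr5:90891095-90891244 for Cxcl1, chr5:90903749-90903898 for Cxcl2 and chr5:90794384-90794533 for Cxcl15.
Cxcl1: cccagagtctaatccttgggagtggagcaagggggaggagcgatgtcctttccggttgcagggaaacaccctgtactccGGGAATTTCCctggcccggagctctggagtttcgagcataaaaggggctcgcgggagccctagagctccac
Cxcl2: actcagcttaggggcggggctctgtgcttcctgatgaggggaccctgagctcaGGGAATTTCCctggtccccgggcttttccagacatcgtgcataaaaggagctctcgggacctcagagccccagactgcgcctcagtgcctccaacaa
Cxcl15: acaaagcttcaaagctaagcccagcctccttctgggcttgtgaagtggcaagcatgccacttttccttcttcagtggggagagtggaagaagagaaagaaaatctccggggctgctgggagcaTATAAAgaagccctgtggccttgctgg
The letters GGGAATTTCC began 71 bases before the RefSeq start of Cxcl1 and 97 bases before that of Cxcl2. The GENCODE starts of both genes given above lie inside these stretches, so the distances to them are shorter. The NF-kB form occurred in the same 150-base window of 0.228% of 32851 RefSeq start sites and TATAAA in 7.57%. Promoters were on hand for 5 of the 8 genes, and those of Ccl20 and Cx3cl1 held no match to the NF-kB form in this window. TATAAA began 6 bases before the RefSeq start of Cx3cl1, in a stretch that lies inside its GENCODE transcript. These are letter matches, and binding was not measured.

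Among these 8 genes, Cxcl1 had the highest level per length in 7 of the 11 mice. Divided by exonic length, its median was 57.2 CPM per kb over the 7 luminal mice and 1310 CPM per kb over the 4 tumors. Cxcl15 came first in v53L (161 CPM per kb) and vBrL (58.6), and Ccl2 in BrT1 (3627) and Br53T2 (176). The place of Ccl2 in Br53T2 rested on 1 cell with 68.1% of its reads. Without top cells, and before division by length, Ccl2 held 65.8 CPM there and Cxcl1 175 CPM.

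In tumors, Cxcl1 stood at 5089 CPM in BrT1, 2522 in Br53T1, 2392 in BrT2 and 217.5 in Br53T2. In luminal mice it was 102 CPM in v53L, 95.8 in vBrL, 312 in vBr53L, 162 in p53L, 107 in pBrL-1, 100.3 in pBrL-2 and 340.2 in pBr53L. BrT1, BrT2 and Br53T1 were thus above every luminal mouse, the lowest of them 7.03 times the highest luminal mouse, while Br53T2 lay inside the luminal range. Among tumors, BrT1 held 23.4 times the level of Br53T2.

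The share of cells with a Cxcl1 read was 100% in BrT1 (47 of 47 cells, interval 92.5 to 100%), in BrT2 (37 of 37) and in Br53T1 (30 of 30). It was 58.8% in Br53T2 (30 of 51 cells, interval 44.2 to 72.4%). Among luminal mice it ran from 17.5% in v53L to 69.8% in pBr53L (37 of 53 cells, interval 55.7 to 81.7%), and the intervals of Br53T2 and pBr53L overlapped. A single cell held 86.6% of all Cxcl1 reads of vBrL, 60.2% of those of p53L and 58.1% of those of v53L. In vBr53L, pBrL-1 and pBrL-2 the top cell held 24.98 to 37.6%, and in pBr53L and the tumors at most 21.1%. Without its top cell vBrL fell from 95.8 to 13.2 CPM, and BrT1 from 5089 to 4750 CPM.

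**Figure D1:**
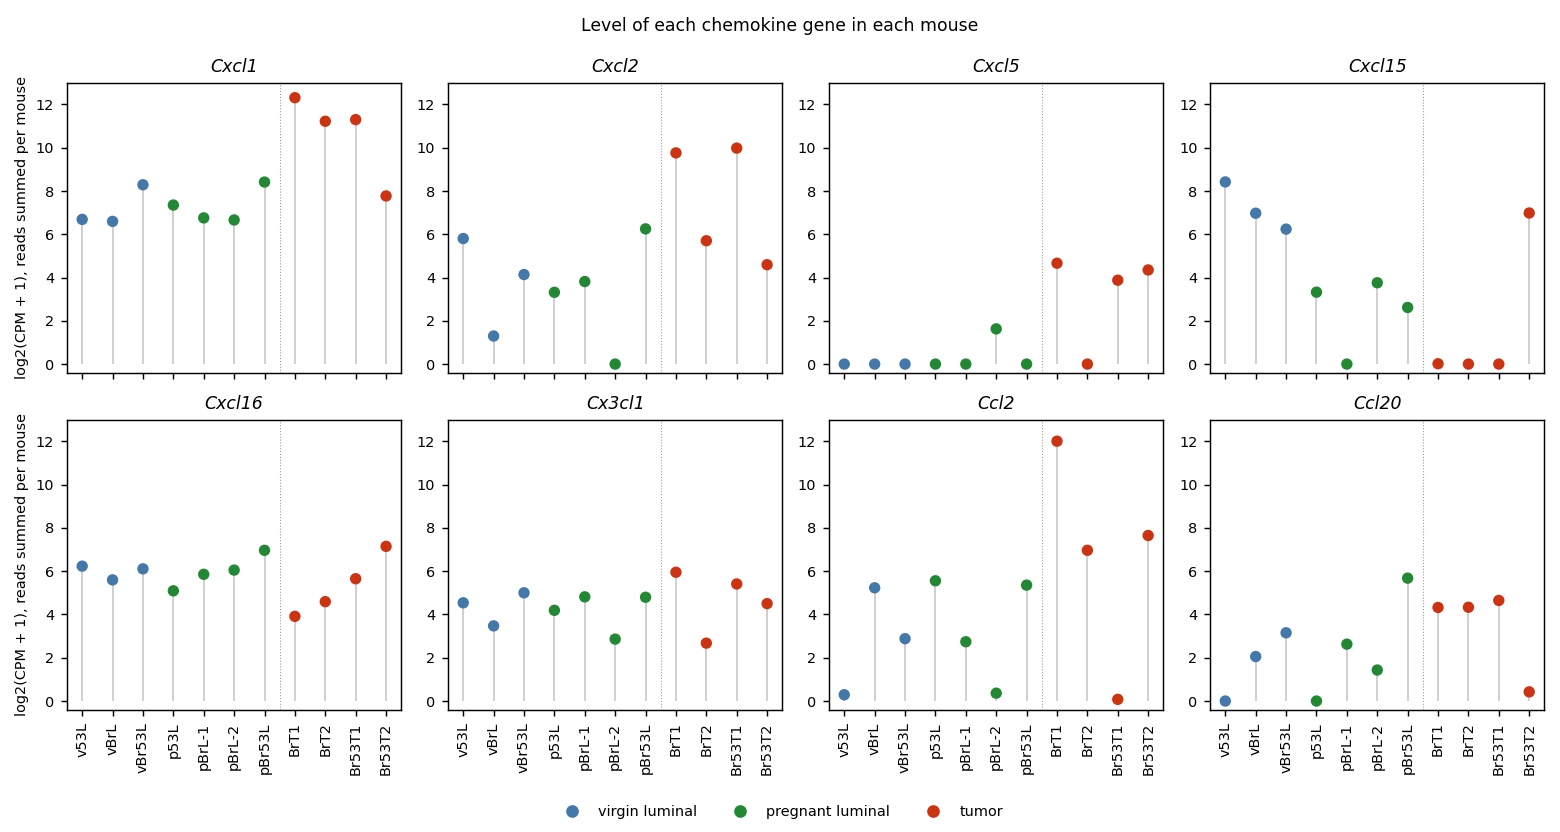
Level of each of the 8 genes in each of the 11 mice, as log2(CPM + 1) of reads summed over cells (vertical axis). Blue points are virgin luminal mice, green pregnant luminal mice and red tumors, and the dotted line separates luminal mice from tumors. Cxcl1 was above every luminal mouse in 3 of 4 tumors, Cxcl15 was higher in the 3 virgin mice than in the 4 pregnant mice, and Cxcl16 was lowest in BrT1 and BrT2.

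Cxcl2, the close relative of Cxcl1, was high in only some of the tumors with high Cxcl1. It reached 868 CPM in BrT1 and 1011 in Br53T1, against 51.1 in BrT2 and 23.2 in Br53T2. Luminal mice held 54.9 CPM in v53L, 1.46 in vBrL, 16.6 in vBr53L, 8.97 in p53L, 13.1 in pBrL-1, 0 in pBrL-2 and 75.1 in pBr53L. BrT1 and Br53T1 were therefore more than 11.5 times the highest luminal mouse, and BrT2 and Br53T2 fell inside the luminal range. The share of cells with a read was 95.7% in BrT1, 93.3% in Br53T1, 48.6% in BrT2 and 15.7% in Br53T2. In luminal mice it was 0 to 34%. No read was found in the 38 cells of pBrL-2, which allows a share of up to 7.89% when 3 counts are taken as the limit and 9.25% by the exact interval. In pBr53L the 2 cells with macrophage or lymphocyte markers held part of the reads, and without them its level was 63.5 CPM.

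Cxcl5 was almost absent from luminal cells. It had 0 reads in 6 of the 7 luminal mice and 2.09 CPM, all from 1 cell, in pBrL-2. Tumors held 24.3 CPM in BrT1, 19.4 in Br53T2, 13.7 in Br53T1 and 0 in BrT2. Before thinning 14 of 47 cells of BrT1 and 25 of 51 cells of Br53T2 had a read, and after it 10 and 8. One cell of Br53T2 held 95.2% of that tumor's reads, which leaves 0.952 CPM without it, and the top cell of BrT1 held 27.6%.

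Ccl2 differed widely between tumors. It stood at 4128 CPM in BrT1, 124 in BrT2, 200 in Br53T2 and 0.0547 in Br53T1, the last from 3 reads. All 47 cells of BrT1 had a read after thinning, compared with 8 of 37 cells in BrT2, 20 of 51 in Br53T2 and 0 of 30 in Br53T1. The share in Br53T2 moved with the setting, from 39.2% at 100000 reads a cell to 15.7% at 50000, and to 7.84% where at least 10 reads were asked for. One cell gave 68.1% of the reads of Br53T2 and 43.7% of those of BrT2. In luminal mice the level was 0.223 CPM in v53L, 36.6 in vBrL, 6.37 in vBr53L, 46.1 in p53L, 5.68 in pBrL-1, 0.286 in pBrL-2 and 40.0 in pBr53L. BrT1 was thus 89.5 times the highest luminal mouse and Br53T1 lay below the lowest. In the lowest, v53L, all 9 reads came from 1 cell, and in the highest, p53L, 1 cell gave 82.2%. Without each mouse's top cell v53L held 0 CPM and Br53T1 0.0377, so that Br53T1 no longer lay below it. BrT1 then held 3729 CPM, p53L 8.46 and pBr53L, the highest luminal mouse, 27.4. BrT1 was also the tumor with the fibroblast markers and the low luminal markers given above, and their part in its Ccl2 level was not tested.

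Ccl20 rested on a handful of cells in most mice. It was 24.1 CPM in Br53T1, 19.2 in BrT2, 19 in BrT1 and 0.341 in Br53T2. In each of these tumors 1 cell held at least 80.98% of the reads. Luminal mice held 0 CPM in v53L and p53L, 3.16 in vBrL, 7.90 in vBr53L, 5.18 in pBrL-1, 1.70 in pBrL-2 and 50.3 in pBr53L. The last was the highest of all mice and the broadest, with a read in 15.1% of cells (8 of 53, interval 6.75 to 27.6%). All 4 tumors lay between the lowest and the highest luminal mouse.

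Cxcl15 was higher in every virgin mouse than in any pregnant mouse. Virgin mice held 342 CPM (v53L), 125 (vBrL) and 74.5 (vBr53L), and pregnant mice 9.01 (p53L), 0 (pBrL-1), 12.5 (pBrL-2) and 5.14 (pBr53L). In each of the 3 pregnant mice with reads, 1 cell gave at least 99.5% of them. The share of cells with a read was 55% in v53L (22 of 40), 25.7% in vBrL and 28.2% in vBr53L, and at most 2.78% in pregnant mice. Among tumors, Br53T2 alone had a level of this size, at 126 CPM in 10 of 51 cells (19.6%, interval 9.82 to 33.1%). BrT1 had 1 read and BrT2 and Br53T1 had none. The cells with Cxcl15 were mostly cells with a read of Prlr, the prolactin receptor and a hormone-sensing marker. Of 100 virgin luminal cells with Prlr 41 had Cxcl15, and of 14 without it 1 did. In Br53T2 these were 10 of 37 and 0 of 14. A Prlr read was also common without Cxcl15, since of 145 pregnant luminal cells with Prlr 3 had Cxcl15, and of 53 without it 0 did. The sum of 6 hormone-sensing markers, Prlr among them, was 849.7 to 5064 CPM in virgin mice, 211 to 314 CPM in pregnant mice and 1682 CPM in Br53T2, and its part in the Cxcl15 levels was not tested.

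The membrane-anchored members varied over a narrower range. Cxcl16 was 141 CPM in Br53T2, 49.3 in Br53T1, 23.1 in BrT2 and 14.1 in BrT1. The luminal levels were 74.3 CPM in v53L, 47.5 in vBrL, 68 in vBr53L, 33.2 in p53L, 57.0 in pBrL-1, 65.4 in pBrL-2 and 124 in pBr53L. Both Br tumors thus lay below every luminal mouse and Br53T2 above every one. Scaled without casein and whey gene reads, Br53T2 (141.4 CPM) was no longer above pBr53L (142.1 CPM). Without each mouse's top cell BrT2 (18.2 CPM) was above p53L (17.3 CPM), where 1 cell held 48.8% of the reads. Cxcl16 was read in 25 to 67.9% of cells of the luminal mice and in 70.6% of Br53T2 cells. The shares in BrT1 (25.5%) and BrT2 (27.03%) lay inside the luminal range. Cx3cl1 stayed between 5.39 CPM (BrT2) and 60.9 CPM (BrT1) in all mice. Its luminal range was 6.27 to 31.1 CPM, and Br53T1 at 41.6 and Br53T2 at 21.7 CPM completed the tumors.

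**Figure D2:**
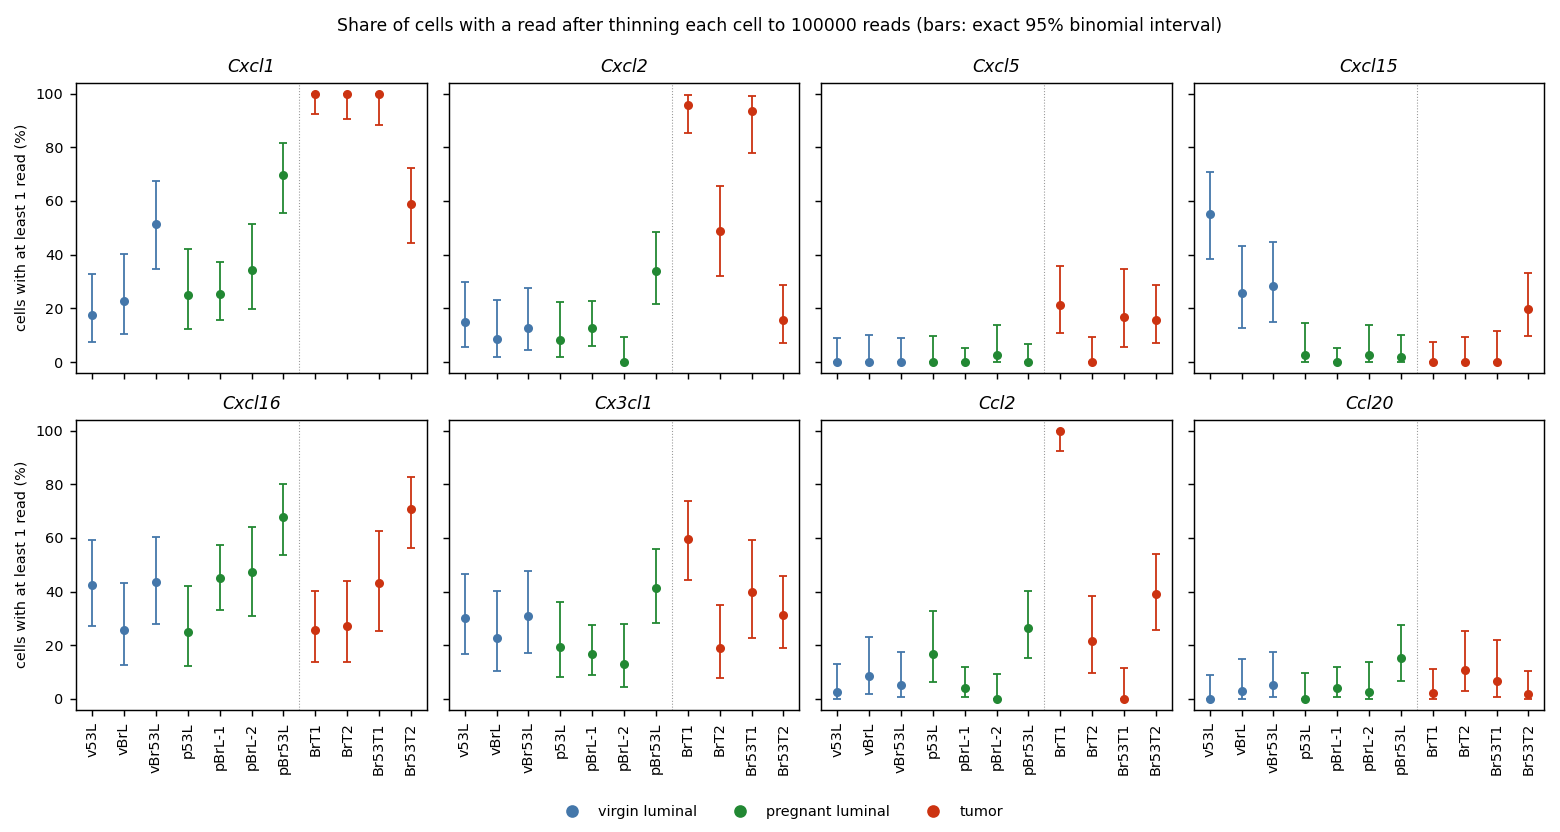
Share of cells with at least 1 read of each gene (vertical axis, percent) in each mouse, after thinning every cell to 100000 reads. Points are shares, bars are exact 95% binomial intervals, and colours are as in the plot of levels by mouse. Cxcl1 was read in every cell of BrT1, BrT2 and Br53T1, Ccl2 in every cell of BrT1 only, and Cxcl15 in 25.7 to 55% of cells of virgin mice.

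To ask which members differed between tumor and luminal cells that share the Brca1 deletion, the 4 tumors were set against 5 luminal mice (vBrL, vBr53L, pBrL-1, pBrL-2 and pBr53L). Cxcl1 was 2555 ± 1993 CPM (SD, n = 4) in tumors and 191 ± 124 CPM (SD, n = 5) in luminal mice. Its fitted log2 fold change was 3.58 ± 0.78 (SE), with an adjusted p of 0.0648 in edgeR's quasi-likelihood test. It was above every luminal mouse in 3 of 4 tumors. Cxcl2 was 488 ± 524 CPM in tumors and 21.2 ± 30.9 CPM in luminal mice, with a log2 fold change of 4.29 ± 1.68 and an edgeR adjusted p of 0.284. Ccl2 was 1113 ± 2012 CPM against 17.8 ± 18.9 CPM, with a log2 fold change of 5.75 ± 2.00 and an edgeR adjusted p of 0.228. Cxcl5 had a log2 fold change of 4.97 ± 2.54 and an edgeR adjusted p of 0.424.

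With all 9 mice, the other 4 differences were within their standard errors. They were 0.47 ± 0.71 for Cx3cl1, 0.03 ± 1.19 for Ccl20, -0.52 ± 0.62 for Cxcl16 and -0.64 ± 2.40 for Cxcl15, on the log2 scale. Without Br53T2 they were -1.47 for Cxcl16 (edgeR adjusted p = 0.234) and -12.86 for Cxcl15 (edgeR adjusted p = 0.0938), the latter against tumors with 1 read in all, so that its size depends on the prior count. None of the 8 members passed an adjusted p of 0.05 in edgeR, where 79 of 12978 genes (0.609%) did, 0.393% higher and 0.216% lower. At an unadjusted p under 0.05, 3 members were higher in tumors, where 13.8% of all genes passed in either direction. DESeq2 called 1 member, Cxcl1, and 9.40% of all genes it tested. Limma on mean CPM also called Cxcl1, and 2.57% of its genes, and edgeR with no low-count filter called it and 0.665% of genes. In no member did the tumors and the 5 luminal mice fail to overlap, which 7.52% of genes did (5.01% higher and 2.51% lower).

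Of the 9 mice left out in turn, Br53T2 alone changed the call for Cxcl1. Without Br53T2 its log2 fold change was 3.96 and it passed (edgeR adjusted p = 0.0226), as did 0.702% of all genes, and without BrT1 it was 3.05 and, as in the whole set, did not pass (edgeR adjusted p = 0.110). With all 7 luminal mice in the luminal arm it passed (3.64, edgeR adjusted p = 0.0161), as did 1.61% of all genes. The log2 fold change of Ccl2 fell to 2.48 without BrT1 (edgeR adjusted p = 0.542). On chip SC6, which held both Br53T2 and pBrL-2, Cxcl1 was 2.17 times higher in the tumor, and no other chip held a tumor together with luminal cells.

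**Figure D3:**
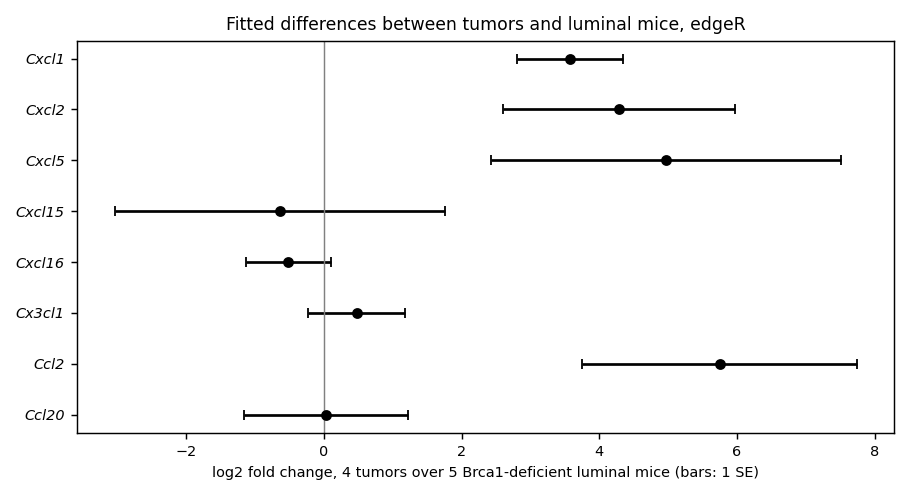
Fitted log2 fold change of each gene (horizontal axis) between the 4 tumors and the 5 Brca1-deficient luminal mice. Points are edgeR estimates and bars 1 SE. Cxcl1, at 3.58 ± 0.78, had the largest estimate relative to its error, and the estimates of Cxcl2, Cxcl5 and Ccl2 were as large or larger with wider errors.

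Pregnancy was tested over the 7 luminal mice with genotype as a term. Cxcl15 was 6.67 ± 5.38 CPM (SD, n = 4) in pregnant and 180.3 ± 142 CPM (SD, n = 3) in virgin mice, and no pregnant mouse reached the lowest virgin mouse. The log2 fold change was -4.42 ± 1.48 (SE), and the edgeR adjusted p was 0.479. Of all genes, 5.24% had every pregnant mouse below every virgin mouse and 6.11% above. On the shared chips the direction was the same in both pairs, with vBr53L 14.5 times pBr53L on SC7 and v53L 37.9 times p53L on SC9. A fit with chip in place of genotype, chosen after the data were seen, rests on these 2 pairs, and in it Cxcl15 passed at -4.47 (edgeR adjusted p = 0.00460), as did 0.617% of all genes. Cxcl1 differed by 0.33 ± 0.28 on the log2 scale, with 178 ± 112 CPM in pregnant mice and 170 ± 123 CPM in virgin mice (edgeR adjusted p = 0.767). Of the 7 members tested (Cxcl5 was filtered out) none was called by edgeR, against 0.0146% of 13709 genes. At an unadjusted p under 0.05 there was 1, Cxcl15, against 8.99% of genes. DESeq2 called Cxcl15, beside 9.11% of all genes it tested, and so did edgeR with no low-count filter, beside 1.99%. Limma called no member and 0.485% of genes.

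The same fit for Brca1 deletion set the 5 Brca1-deficient luminal mice against v53L and p53L, with stage as a term. Both 53 mice were on chip SC9, which held no Brca1-deficient mouse, so genotype and chip cannot be told apart, and they had the fewest reads of the luminal mice (40338926 and 45835235). No member was called by edgeR (0 of 7, and 0% of 13709 genes), and 1 passed an unadjusted p of 0.05, while 5.97% of genes did. That member was Ccl20, which had 0 reads in both 53 mice and reads in all 5 others (13.6 ± 20.6 CPM, SD). The mean of the Brca1-deficient mice was 183 times a floor of 3 reads in v53L, 0.0744 CPM. That mean rested on pBr53L, and without it the ratio was 60.3 (4.48 CPM over 4 mice), with the lowest mouse 22.9 times the floor. The floor covers read depth and not the few cells sampled, so these ratios do not bound the difference. By the exact interval, 0 of 40 cells in v53L and 0 of 36 in p53L allow shares of up to 8.81% and 9.74%. The shares in vBrL, vBr53L, pBrL-1 and pBrL-2 were 2.63 to 5.13%, and that in pBr53L was 15.1%. A separation of this kind, with every Brca1-deficient mouse higher, was seen in 8.21% of genes, and the opposite in 3.12%. In 2 of those 5 mice all Ccl20 reads came from 1 cell. DESeq2 called Ccl20 and Cxcl5, the latter with reads in 1 luminal cell in all, beside 6.17% of all genes it tested. Limma called no member and 0% of genes, and edgeR with no low-count filter no member and 0.0543% of genes.

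Between the 2 Br53 and the 2 Br tumors, Cxcl16 was 95.1 ± 64.8 CPM (SD, n = 2) against 18.6 ± 6.41 CPM, and both Br53 tumors were above both Br tumors. Its log2 fold change was 2.25 ± 0.86 (SE) with an edgeR adjusted p of 1.0. With 2 tumors an arm, 31.9% of genes did not overlap, with 19% higher in Br53 tumors and 12.9% lower. Over tumors left out in turn the log2 fold change of Cxcl16 was 1.31 (without Br53T2) to 2.80 (without Br53T1). Cxcl1 differed by -1.49 ± 1.24 on the log2 scale (edgeR adjusted p = 1.0), and by -4.17 (without Br53T1) to -0.61 (without Br53T2). No member was called (0 of 7, and 0% of 13477 genes), and 1 passed an unadjusted p of 0.05, against 3.98% of genes. DESeq2 called Cxcl15, which had reads in 1 of the 2 Br53 tumors, beside 4.80% of all genes it tested. Limma called no member and 0% of genes. With no low-count filter edgeR called 2 members, Cxcl15 and Ccl2, beside 1.67% of genes.

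Whether the tumor effect differed with Trp53 genotype was tested by the interaction over the 9 Brca1-deficient mice. The log2 difference between the effect in Br53 and in Br mice was -3.26 ± 1.18 for Cxcl1 and 12.97 ± 5.53 for Cxcl15, both with an edgeR adjusted p of 0.920. That for Cxcl1 was -5.92 without Br53T1 and -2.38 without Br53T2. No member was called by edgeR, against 0.00664% of 15051 genes, or by DESeq2, which called 3.83% of its genes. With no low-count filter edgeR called 3, Cxcl1, Cxcl15 and Ccl2, beside 1.45% of genes. With the filter, Cxcl1 and Cxcl15 had an unadjusted p under 0.05, as did 5.00% of genes. The size for Cxcl15 depends on the prior count, since both Br tumors together held 1 read, and the value rested on Br53T2, being -2.15 without it.

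Within single mice, most cells with Cxcl2 also had Cxcl1. Of 99 tumor cells with a Cxcl2 read all 99 also had Cxcl1, in tumors where 144 of 165 cells had Cxcl1. In Br53T2, where Cxcl1 was not universal, all 8 Cxcl2 cells had Cxcl1, so that both were read in 15.7% of cells where the product of the shares is 9.23%. In luminal mice 36 of 44 Cxcl2 cells had Cxcl1, which was read in 112 of 312 luminal cells. Across the cells of a mouse, Spearman's rho between the genes was 0.82 in BrT1 (47 cells), 0.73 in Br53T1 (30), 0.37 in Br53T2 (51) and 0.29 in BrT2 (37). It was 0.31 to 0.61 in the 6 luminal mice with both genes. These are descriptions over cells that share a library, a chip and depth.

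Cxcl1 and Ccl2 had a rho of 0.64 in BrT1, where both were read in every cell, 0.41 in Br53T2 and 0.28 in BrT2, and of -0.09 to 0.42 in 6 luminal mice. For Cxcl1 and Cxcl15 rho was -0.13 to 0.35 in 6 luminal mice and -0.12 in Br53T2. Cxcl16 and Cx3cl1 had a rho of -0.15 to 0.24. The median cell of BrT1 had reads of 4 of the 8 genes (range 3 to 6), that of Br53T1 3, and that of every other mouse 1 or 2.

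**Figure D4:**
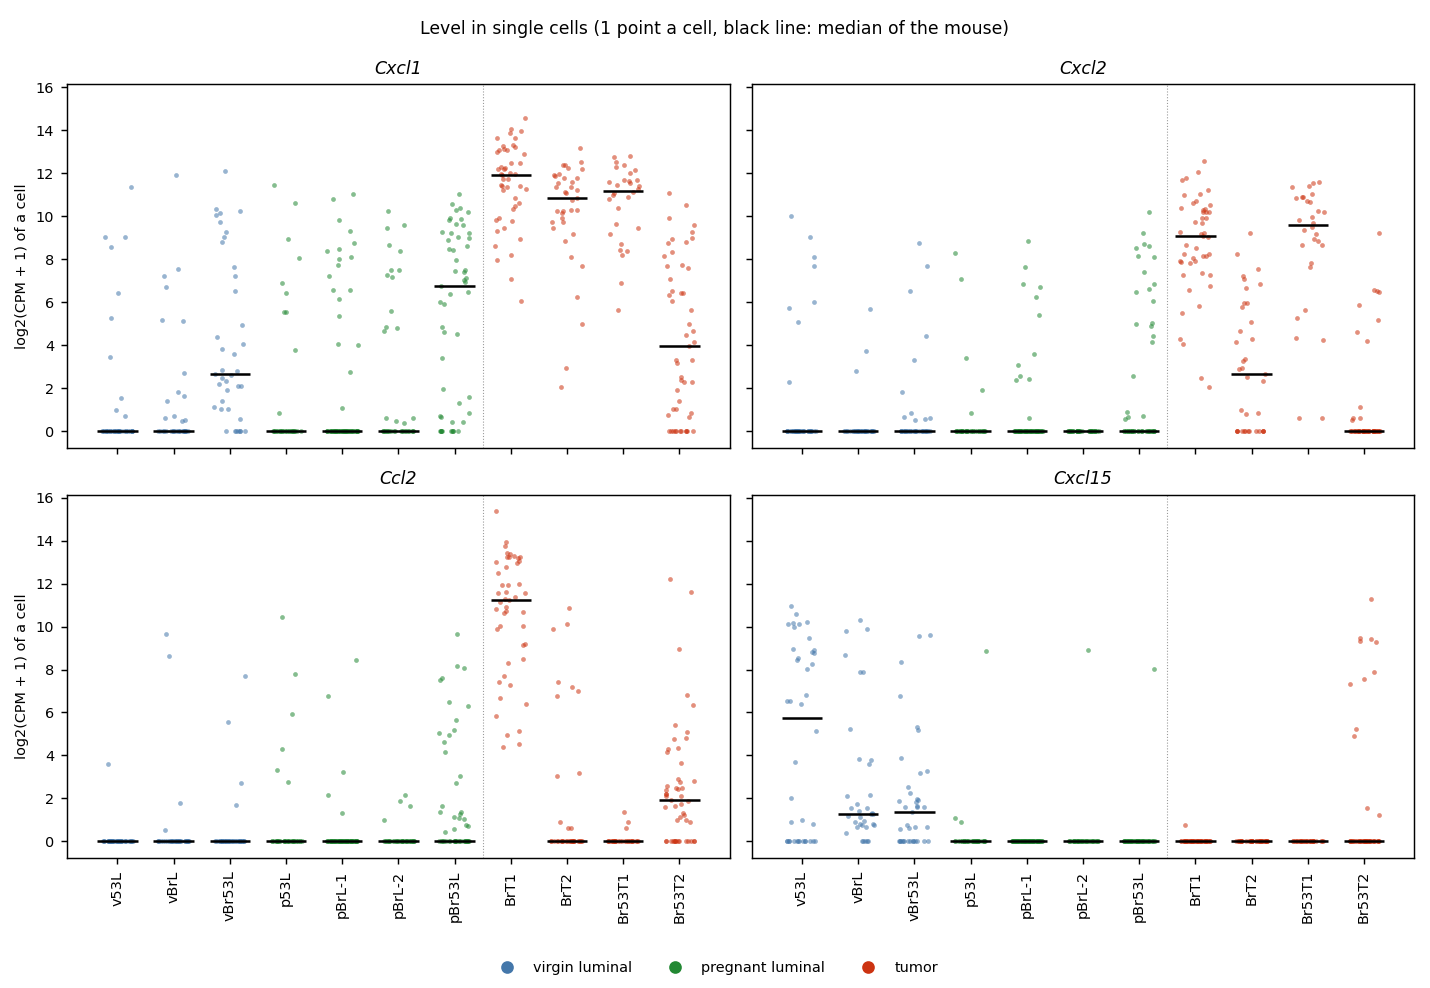
Level of Cxcl1, Cxcl2, Ccl2 and Cxcl15 in each of the 312 luminal and 165 tumor cells, as log2(CPM + 1) (vertical axis), by mouse. Each point is a cell and black lines are medians. The median Cxcl1 cell was at 0 in 5 of the 7 luminal mice, and Ccl2 was at 0 in at least part of the cells of every mouse except BrT1.

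**Figure D5:**
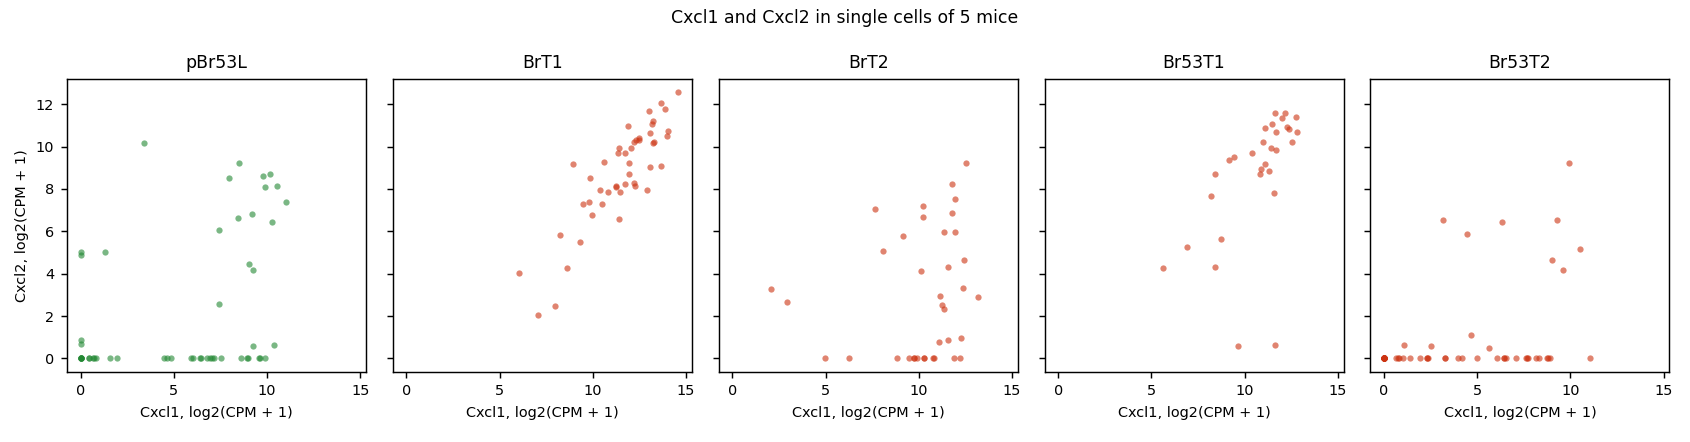
Cxcl1 (horizontal axis) against Cxcl2 (vertical axis) in single cells of pBr53L and the 4 tumors, both as log2(CPM + 1). Each point is a cell. The points rise together in BrT1 (rho 0.82) and Br53T1 (rho 0.73), and many cells of BrT2 and Br53T2 lie on the horizontal axis, with Cxcl1 and no Cxcl2.

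Receptors for these ligands were at or near 0 in the sorted cells. Cxcr2 reached at most 0.0110 CPM in any mouse, Ccr2 0.228 CPM and Ccr6 0.0248 CPM, and Cxcr6 had no read. Cx3cr1 was at most 0.298 CPM except in vBrL (15.6 CPM), the luminal mouse with 1 cell that held macrophage or lymphocyte markers. Among 21 receptor genes in the table the 3 with the highest mean were Ackr3, an atypical scavenging receptor (16.8 to 224 CPM in tumors and 0.117 to 14.5 CPM in luminal mice), Ccrl2 and Cxcr4. None of the 4 receptors tested between tumors and luminal mice was called by edgeR.

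Of 27 other chemokine ligands measured, 7 had no read, and among the 8 tested between tumors and luminal mice edgeR called none. Their median log2 fold change was 0.42, beside 0.06 for all genes and 2.02 for the 8 members. The highest means were those of Cxcl10, an interferon-induced ligand (0 to 505 CPM across mice), Cxcl9, Cxcl12, Ccl25 and Cxcl17. Cxcl3, which shares sequence with Cxcl2, had at most 10.2 CPM.

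Of the enzymes that process chemokines, Adam10 was abundant in every mouse (144 to 1651 CPM) and Adam17 less so (26.5 to 140 CPM). Neither was called. Mmp2, a secreted metalloprotease that cleaves several chemokines, was the 1 gene called from the lists described here, in any of the 5 comparisons. It was 11.7 CPM in Br53T2, 62.4 in Br53T1, 169 in BrT2 and 178 in BrT1, and at most 0.286 CPM in any luminal mouse with an edgeR adjusted p of 0.0282 against the 5 luminal mice.

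In the NF-kB pathway 20 genes were tested between tumors and luminal mice and none was called by edgeR, 3 being higher and 1 lower at an unadjusted p under 0.05. The median log2 fold change was 0.08. Nfkbia, an inhibitor that NF-kB itself induces, was 4292 CPM in BrT1, 3155 CPM in Br53T1, 1162 CPM in Br53T2 and 826 CPM in BrT2, and 476.7 to 1809 CPM in luminal mice. The order of the tumors was not the same for the next genes by mean level. Nfkbiz was 934 CPM in Br53T1, 780 CPM in BrT2, 370 CPM in BrT1 and 234 CPM in Br53T2, and 98.6 to 408 CPM in luminal mice. Zfp36 was 810 CPM in BrT2 and 143 to 194 CPM in the other tumors, and 60.8 to 438 CPM in luminal mice. Of 12 inducing cytokines and receptors tested, of which Il1r1, Tnfrsf1a and Tlr2 had the highest means, none was called. The same held for 9 other neutrophil and myeloid factors, among which Lcn2 was 0.0110 CPM in BrT1 and 1373 to 14690 CPM in the other tumors. It also held for 10 immediate early genes (Fos, Egr1 and Atf3 the highest), whose median log2 fold change was 0.66. Of these, 9 had a fold change above 0, as did 52.6% of all genes, and 4 were higher in tumors at an unadjusted p under 0.05, which 13.8% of all genes passed in either direction. Their summed level was 6381 to 9188 CPM in tumors and 2208 to 6079 CPM in luminal mice, and its part in the chemokine levels was not tested.

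The genes most like each member were ranked by Pearson's r of log2(CPM + 1) over the 11 mice, among the 8729 genes whose mean reached 10 CPM. For Cxcl1 these were Cers2 (r = 0.96), Ppfibp1 (0.96) and Loxl3 (0.95). For Cxcl15 they were Tph1, the tryptophan hydroxylase (0.96), Bmp3 (0.95) and Agtr1a, the angiotensin receptor (0.95). Tph1 was 0.112 to 394 CPM in luminal mice and at most 166 CPM in tumors. The 3 nearest genes were Foxk2, Psmb4 and Ahsa2 for Cxcl2 (0.93 to 0.89), Osr1, Pkp1 and Dda1 for Cxcl5 (0.96 to 0.94), and Uhrf2, Vps29 and Timm8b for Ccl2 (0.94 to 0.90). For Cxcl16 they were Fcf1 and the major histocompatibility genes H2-Q5 and H2-Q9 (0.94 to 0.90). Zswim4, Tmem185b and Rtca were nearest to Cx3cl1 (0.90 to 0.87), and Lamtor5, Dcp1a and Fam219b to Ccl20 (0.87 to 0.85). Since tumors and luminal mice form separate clusters for several of these genes, the values rank likeness only. Cxcl1 and Cxcl2 themselves had an r of 0.82 over the mice.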

How the data were processed

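Single luminal and tumor cells were profiled on Fluidigm C1 chips with SMARTer cDNA and Nextera XT libraries. The authors filtered reads with sickle, trimmed them with Trim Galore 0.4.1, aligned them to mm10 with STAR 2.5.3a and counted reads per gene with Subread 1.5.3. Read length differed between runs, and neither its value per cell nor the gene annotation and strand setting were given in the sources used here. The deposited values were raw counts for 21004 genes in 312 luminal and 165 tumor cells, without molecular identifiers or cell barcodes shared between libraries, so amplification noise remains in every value.

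Counts were summed per mouse, because cells of 1 mouse are not replicates, and given as CPM. Shares of cells were counted after thinning to 100000 reads. Comparisons used edgeR 4.0.16 (filterByExpr, TMM factors, glmQLFit, glmQLFTest) with Benjamini-Hochberg adjustment over all genes tested and a threshold of 0.05. The script was tested on simulated data. The study's rank test contrasted clusters of cells, which were not used here. DESeq2 1.42.0, limma 3.58.1 on log2(mean CPM + 1), RLE factors, no filter, cells with at least 2000 genes, each mouse left out and other arms or covariates were tried. Detection at 10 reads, thinning to 50000 reads and scaling without 7 casein and whey genes were tried for levels. Leaving out cells with 2 or more macrophage or lymphocyte markers at 10 CPM, Cd68 not counted, was added after the data were seen. So were leaving out the top cell of each mouse and the chip as a term for pregnancy.

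The members, gene lists and tests were chosen with earlier results of these data known. Genes were named by rule: all 8 members, the 3 genes nearest to each, list genes called in a comparison, the 5 other ligands and 5 receptors with the highest mean CPM, and the 3 highest in each other list, of which only those that bear on a member are described. Positions are from GENCODE M21 on GRCm38 and start sites from RefSeq. Doublets were looked for by the authors under the microscope, and no caller was run here. Python 3.11.15 was used for the rest.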

Additional observations from a re-analysis of the deposited data

Results flagged for a closer look

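Samples were marked where the highest or lowest mouse of 4 to 7 stood apart by Dixon's ratio at the 95% level, in 64 sets of values (8 genes, 4 sets of mice, levels and shares). Chance marks about 1 in 20 groups, but this rate does not hold where the other mice are tied at 0 or 100%, as for the Cxcl1 and Cxcl15 shares in tumors and for Cxcl5 in luminal mice. Of the 13 marked here, 6 are 1 cell of pBrL-2.

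Br53T2 stood apart from the other tumors in 4 values. Its share of cells with Cxcl1 was 58.8%, against 100% in each of the other 3. Its Cxcl15 level was 6.98 as log2(CPM + 1), with a read in 19.6% of cells, where the other 3 had no read after thinning. Its Ccl20 level was 0.42 as log2(CPM + 1), or 0.341 CPM, where the others held 19 to 24.1 CPM. Those levels rested on 1 cell a tumor, without which BrT1 held 0 CPM, BrT2 3.72 and Br53T1 2.56. The share of cells with Ccl20 was 1.96% in Br53T2, 2.13% in BrT1, 6.67% in Br53T1 and 10.8% in BrT2. Br53T2 was also the tumor with basal markers at 5335 CPM and hormone-sensing markers at 1682 CPM (90.9 to 110 CPM in the others), and their part in these values was not tested.

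BrT2 stood apart as the tumor with a Cxcl5 level of 0. Among luminal mice pBrL-2 stood apart for Cxcl5, at 1.63 as log2(CPM + 1) and 2.63% of cells, which is a single cell, and the other luminal mice had no read. pBr53L stood apart for Ccl20, which was read in 15.1% of its cells and in at most 5.13% of those of any other luminal mouse. In edgeR with its low-count filter no member's tumor effect differed between Br53 and Br mice past the threshold, and without the filter 3 did.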

How the results depend on the processing

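In edgeR with the settings given, no member was called in any of the 5 comparisons. For tumors against Brca1-deficient luminal mice, DESeq2, no low-count filter, limma and all 7 luminal mice each called 1 member, Cxcl1 (log2 fold changes 3.58, 3.56, 3.18 and 3.64, adjusted p 4.21e-04, 0.0452, 0.0413 and 0.0161), and leaving out 1 mouse called 0 to 1, the 1 being Cxcl1 without Br53T2. For pregnancy, DESeq2, no filter and chip in place of genotype each called 1 (Cxcl15), and leaving out 1 mouse called 0. For Brca1 deletion DESeq2 called 2, for Br53 against Br tumors DESeq2 called 1 and no filter 2, and for the interaction no filter called 3. Genes called in all moved as well: 79 for tumors against luminal mice became 1334 by DESeq2, 347 by limma and 129 with no filter, with all 7 luminal mice it was 213. In the same order, 2 for pregnancy became 1288, 60 and 366 (17 with no covariate, 96 with chip). DESeq2 and no filter gave 886 and 10 for Brca1 deletion (0), 716 and 295 for Br53 against Br (0), and 559 and 281 for the interaction (1). Leaving out 1 mouse gave 11 to 94, 0 to 41, 0 to 127, 0 to 228 and 0 to 156.

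Of 209 alternative fold changes, 186 kept direction and side of the threshold. Those that turned direction were small or rested on 1 mouse, and the cause was not tested. Cxcl15 in tumors was 2.26 with the 3 pregnant luminal mice only and -12.86 (without Br53T2) to 0.25 (without vBrL) over mice left out. Ccl20 was -0.46 with those 3 mice, -0.0039 without the cells holding macrophage or lymphocyte markers, and -0.28 to 1.66 over mice left out. Cx3cl1 was -0.013 to 0.80 over mice left out, the lowest without BrT1. The interaction for Cxcl15 was -2.15 (without Br53T2) to 15.91.

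Of 80 alternative levels 74 moved by at most 1 SD over mice. That SD exceeded the mean for several genes, as for Ccl2 (1113 ± 2012 CPM) and Cxcl2 (488 ± 524 CPM) in tumors. For these even a fall to 0 would count, so the 74 do not show that levels were stable. At 10 reads the mean share of cells fell to 3.45% for Cxcl5, 12.99% for Cxcl16 and 11.5% for Cx3cl1 in tumors, and to 18.7% for Cxcl16 and 6.04% for Cx3cl1 in luminal mice. Without the top cells Ccl20 in tumors was 1.57 CPM. Virgin and pregnant mice were paired by chip in the fit just named. No fit by replicate number was made, since these numbers name mice within a group. A level of 3 reads was 0.0259 to 0.0744 CPM, and levels below it rest on 1 or 2 reads.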
